A study of Mus musculus with 4 samples.

Results

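Lymph node cluster 4 is a group of cells from a sort of mouse regulatory T (Treg) cells. Its median cell had more RNA molecules than that of any other lymph node cluster. Levels of genes for ribosome assembly, nucleotide synthesis and mitochondrial import were high. Whether every member is a Treg cell was not tested. Foxp3 took a smaller share of the RNA than in the other cells, and some members held Cd8a or Il2 transcripts. Cluster 4 holds 355 of the 3963 lymph node cells, and the whole series has 14875 cells. Its members are all lymph node cells that carry number 4 in the deposited clustering at resolution 0.6. Of them, 217 came from the library labelled ICOS FC, out of 2066 lymph node cells, and 138 from the library labelled ICOS WT, out of 1897. The column names of the deposited table show that the clusters were made from the expression of these same cells. Every difference between cluster 4 and the other clusters is therefore a description of the cluster, with no test.

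The study set ICOS-deficient Treg cells against ICOS WT Treg cells, in the spleen at steady state and in cervical draining lymph nodes at day 1 of an oxazolone challenge. All mice were of strain C57BL/6. ICOS FC is the title of the groups whose genotype is labelled ICOS-deficient, and ICOS WT is the title of the comparison groups. Live CD4+ TCRβ+ YFP+ cells were sorted at more than 95% purity and sequenced as 10x Genomics 3′ single-cell libraries. The labels give neither the cells or promoter that drive the YFP reporter or the deletion, nor the age, sex or number of the mice, nor whether mice were pooled. Each group is 1 library. No difference between the labels can be tested across animals, and all intervals cover counting error only.

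ICOS, a relative of CD28, gives activated T cells a second signal that runs through PI3K. Oxazolone is a hapten that provokes contact hypersensitivity when applied to skin. A T cell that has met its antigen enlarges into a blast before it divides. It takes up amino acids, iron and glucose, makes nucleotides and polyamines, and builds ribosomes in the nucleolus, a programme that MYC and mTORC1 are known to drive. Treg cells hold other immune cells in check, and Foxp3 is the factor that sets their identity.

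A point about the libraries comes before the results. The 2 lymph node libraries shared 30 cell barcodes. In 27 of the 30, the smaller cell held between 2.21% and 2.96% of the larger cell's UMIs (unique molecular identifiers, each standing for 1 captured transcript), and between 96.3% and 99.8% of its genes were also detected in the larger cell. The larger cell of these pairs was a cluster 4 cell of ICOS FC in 16 cases and of ICOS WT in 3. The smaller cell was a cluster 4 cell in 2 cases, both in ICOS WT. With the spleen libraries included, 18 ICOS FC and 7 ICOS WT cells of cluster 4 had a barcode that another library also held. Counts without all such cells are given beside the main counts and beside the lists where they changed a call between the labels.

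Icos, the targeted gene, was compared first. Levels are in CPM, the UMIs of a gene per 1000000 UMIs summed over the cells of a library. Icos had 1377 CPM in ICOS FC and 919.7 CPM in ICOS WT cluster 4, a log2 ratio of 0.58 (0.51 to 0.66), and UMIs in 91.2% of ICOS FC and 81.2% of ICOS WT members. In the other lymph node clusters it had 812 CPM in ICOS FC and 540.1 CPM in ICOS WT, and in every deposited cluster of lymph node and spleen its level in ICOS FC was above that in ICOS WT. The transcript was therefore not lower in the library labelled ICOS FC. The sources used here do not say which part of the gene was altered, so a 3′ count cannot check the deficiency. The matching of the deposited names KO and Control to ICOS FC and ICOS WT rests on the words alone, and all directions refer to the libraries by these labels.

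MYC binds promoters with its partner MAX at the E-box CACGTG, which reads the same on both strands. This motif was looked for in the 250 bases upstream of gene starts in RefSeq (GRCm38.p6), because the genes that mark the cluster were high together. Of the 5 marker genes with an entry, Dnph1 held it, and of the 12 most cluster-biased genes with an entry, Apex1 held it. Both windows are printed to show where the motif lies, with the motif in capitals. Apex1 encodes a base excision repair endonuclease, and its window is chr14:50924699-50924948, plus strand. Dnph1 encodes a nucleotide hydrolase, and its window is chr17:46496539-46496788, plus strand.
Apex1: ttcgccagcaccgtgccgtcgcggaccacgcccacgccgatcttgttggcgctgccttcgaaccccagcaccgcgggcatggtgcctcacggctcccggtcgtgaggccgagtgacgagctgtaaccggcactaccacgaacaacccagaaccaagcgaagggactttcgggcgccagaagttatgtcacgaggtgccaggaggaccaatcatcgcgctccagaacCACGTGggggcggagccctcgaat
Dnph1: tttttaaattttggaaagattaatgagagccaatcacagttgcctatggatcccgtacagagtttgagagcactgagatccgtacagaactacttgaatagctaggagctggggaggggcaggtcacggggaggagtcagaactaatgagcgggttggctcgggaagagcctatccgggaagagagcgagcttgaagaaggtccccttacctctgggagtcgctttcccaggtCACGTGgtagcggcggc

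The motif begins 24 bases before the start of Apex1 and 17 bases before that of Dnph1. Among the genes called higher in cluster 4 below, 14.4% of the 451 with an entry had it, against 8.37% of the 263 called lower, 11.1% of all genes compared and 6.86% of all genes in the table. Of 35 ribosome biogenesis genes with an entry, 1 had it, Nop2. A match here is a description of letters and not a bound site, and a window without them says nothing about the factor.

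Cluster 4 made up 10.5% of the ICOS FC lymph node cells (exact binomial interval 9.21% to 11.9%) and 7.27% of the ICOS WT cells (6.15% to 8.54%). These intervals do not overlap, but they do not cover differences between mice. The cells of the cluster carried 20.6% of all ICOS FC UMIs and 15.4% of all ICOS WT UMIs. Without cells whose barcode another library holds, the shares were 9.79% in ICOS FC and 7.08% in ICOS WT.

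Cells of the cluster were rich in RNA under both labels. In ICOS FC, the median cluster 4 cell had 12166 UMIs, against 6478 in the other clusters, and in ICOS WT it had 13389 UMIs, against 6392. The ratio of medians was 1.88 in ICOS FC and 2.09 in ICOS WT. Within the cluster the range was wide, between 2593 and 64013 UMIs in ICOS FC and between 943 and 63355 in ICOS WT. Cells above 20000 UMIs were 28.1% of ICOS FC and 29.7% of ICOS WT members, against 2.81% and 2.16% of the other ICOS FC and ICOS WT cells. The part of doublets in these large cells was not tested. In the cells that the deposited phase calls placed in G1, the ratio of medians was 1.57 in ICOS FC and 1.76 in ICOS WT.

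**Figure D1:**
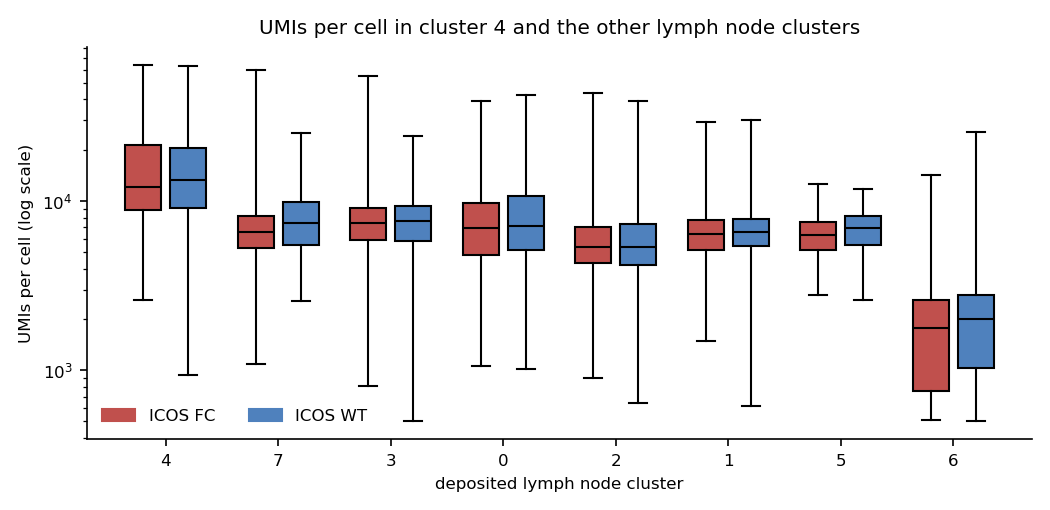
UMIs per cell on a log scale in the 8 deposited lymph node clusters, with cluster 4 first and the rest in order of likeness to it. Boxes span the quartiles with the median as a line, and whiskers reach the lowest and highest cell. The cluster 4 medians, 12166 in ICOS FC and 13389 in ICOS WT, lie above those of all other clusters.

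Detected genes per cell differed less once depth was made equal. Thinned to 5000 UMIs, the median cell expressed 1829 genes in ICOS FC cluster 4, against 1697 in the other ICOS FC cells, and 1822 in ICOS WT cluster 4, against 1727. Thinning left out 10 ICOS FC and 7 ICOS WT cells of the cluster, and 526 ICOS FC and 517 ICOS WT cells of the others. Median mitochondrial counts were 3.02% in ICOS FC and 3.15% in ICOS WT cluster 4 cells, against 3.63% and 3.88% in the other ICOS FC and ICOS WT cells.

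Most members stayed together at the other deposited resolutions. At resolutions 0.5, 0.8 and 1, between 69.6% and 76.3% of the cluster 4 cells stayed together in 1 cluster, and 241 cells, 148 of ICOS FC and 93 of ICOS WT, did so at all of them. The clusters that took them held 454, 271 and 335 cells, of which 59.0%, 91.1% and 80.9% were cluster 4 cells.

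The label of high-RNA biosynthetic blasts was checked against 6 marker genes, which were chosen on this cluster and so are not independent of it. The word blast refers to cell size, which was not measured. Srm, the spermidine synthase of polyamine production, had 256 CPM in ICOS FC cluster 4, against 35.3 in the other ICOS FC cells, and 251 CPM in ICOS WT cluster 4, against 25.4. Shmt1, which moves a carbon unit between serine and folate, had 85.5 CPM in ICOS FC cluster 4, against 8.72, and 83.3 in ICOS WT cluster 4, against 5.11. Hk2, the hexokinase that starts glycolysis in growing cells, had 76.2 CPM in ICOS FC cluster 4, against 9.15, and 73.4 in ICOS WT cluster 4, against 6.599. All of these were several-fold higher in the cluster in both libraries, and the other 3 markers behaved alike. Pus7, an RNA pseudouridine synthase, had 52.7 CPM in ICOS FC cluster 4, against 8.43 elsewhere, and 60.02 in ICOS WT cluster 4, against 6.21. Ifrd2, a ribosome-binding translation inhibitor, had 70.1 CPM in ICOS FC cluster 4, against 10.2, and 62.6 in ICOS WT cluster 4, against 8.33. Dnph1 had 40.1 CPM in ICOS FC cluster 4, against 5.52, and 35.8 in ICOS WT cluster 4, against 3.77. Each of the 6 was higher in cluster 4 of each library than in any other lymph node cluster of either library, as the marker plot shows. The next highest values were 98.2 CPM of Srm in cluster 3 of ICOS WT, 41.0 CPM of Hk2 in cluster 7 of ICOS FC and 28.0 CPM of Ifrd2 in cluster 3 of ICOS WT.

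**Figure D2:**
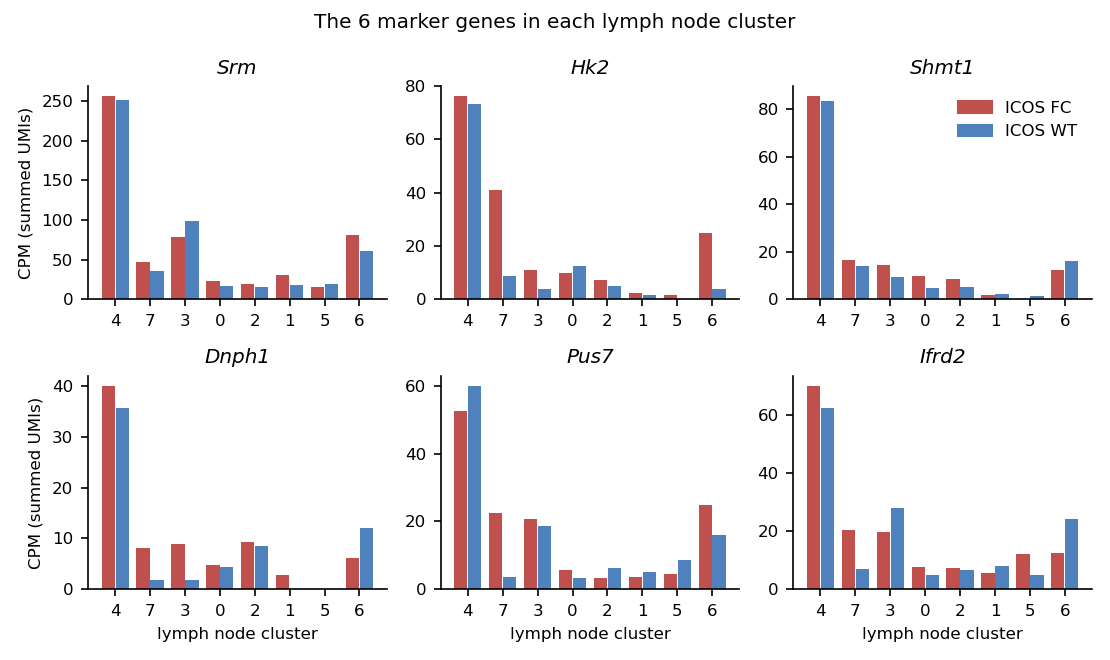
CPM of the 6 marker genes in the 8 lymph node clusters, with cluster 4 first and ICOS FC left of ICOS WT. Each bar is the summed UMIs of the cells of 1 library in 1 cluster, with no replicate. Srm reaches 256 CPM in ICOS FC and 251 CPM in ICOS WT cluster 4, and 98.2 CPM or less elsewhere.

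Single cells varied in how many markers they showed. In ICOS FC, 56.2% of cluster 4 cells had UMIs of 3 or more of the 6 markers, against 3.19% of the other cells, and in ICOS WT the shares were 65.9% and 1.48%. At 5000 UMIs per cell they were 25.6% of ICOS FC cluster 4 cells, against 0.680%, and 25.2% of ICOS WT cluster 4 cells, against 0.322%. No marker UMI was found in 17 ICOS FC and 9 ICOS WT cells of the cluster. In the spleen clusters at steady state, where tissue and challenge cannot be told apart, the highest levels were 158 CPM of Srm and 52.3 CPM of Shmt1, both in spleen cluster 5 of ICOS WT.

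Markers of other cell types differed in level. The 5 B cell markers summed to 14.6 CPM in ICOS FC cluster 4, against 27.7 in the other cells, and to 9.93 CPM in ICOS WT cluster 4, against 12.9. The 6 myeloid markers summed to 6.73 CPM in ICOS FC and 5.18 CPM in ICOS WT cluster 4, and the 4 erythroid markers to 0. Pax5 was at 0 in ICOS FC and Ms4a1 in ICOS WT. The 4 dendritic cell markers summed to 3.92 CPM in ICOS FC cluster 4, against 2.25, and to 2.59 CPM in ICOS WT cluster 4, against 2.75. The 5 markers of stroma and endothelium summed to 21.02 CPM in ICOS FC cluster 4, against 56.2, and to 25.9 CPM in ICOS WT cluster 4, against 63.4. The 4 plasma cell markers were not low, at 109 CPM in ICOS FC cluster 4, against 103, and 88.5 CPM in ICOS WT cluster 4, against 85.0. Nearly all of this was Xbp1, a factor of the unfolded protein response in many cell types, at 107 CPM in ICOS FC and 88.1 CPM in ICOS WT, and Jchain and Mzb1 were at 0 in ICOS WT. The 5 CD8 T and NK markers summed to 29.2 CPM in ICOS FC cluster 4, against 48.0 in the other cells, and to 85.9 CPM in ICOS WT cluster 4, against 48.9. Ncr1, a defining NK gene, was at 0 in the cluster in both libraries. The 7 markers of conventional CD4 T cells summed to 109 CPM in ICOS FC cluster 4, against 106, and to 174 CPM in ICOS WT cluster 4, against 116. Il17a was at 0 in both libraries. Cd40lg UMIs sat in 32 ICOS FC and 41 ICOS WT members, or 14.7% and 29.7%, of which 12 and 15 cells also had a Foxp3 UMI. These shares were 42.1% and 43.9% in cluster 7 and lower than in cluster 4 in all remaining clusters, although such shares follow depth.

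Il2, the growth cytokine that Treg cells normally do not make, gave 26.3 CPM in ICOS FC and 41.5 CPM in ICOS WT cluster 4, against 3.996 and 6.68 CPM in the other ICOS FC and ICOS WT cells. These UMIs sat in 11 ICOS FC and 9 ICOS WT cells, of which 3 and 0 also had a Foxp3 UMI. A single cell held 61 of the 94 ICOS FC UMIs, and the 2 highest ICOS WT cells held 28 and 27 of 96. In cluster 7 the level was higher still, at 55.3 CPM in ICOS FC and 98.5 CPM in ICOS WT. Cd8a UMIs sat in 3 ICOS FC and 10 ICOS WT cells, or 1.38% and 7.25% of the members.

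Foxp3 itself was lower per UMI in the cluster. It had 36.4 CPM in ICOS FC cluster 4, against 79.6 in the other cells, and 32.4 CPM in ICOS WT cluster 4, against 79.5. At 5000 UMIs per cell, 21.3% of ICOS FC members had a Foxp3 UMI, against 30.2% of the other cells, and 20.6% of ICOS WT members, against 28.6%. The other clusters were not uniform, since the shares in cluster 7 were 13.3% of 45 ICOS FC cells and 21.2% of 52 ICOS WT cells. Without thinning the shares were 43.8% against 38.3% in ICOS FC and 39.1% against 37.2% in ICOS WT, shares that follow depth and go against the CPM, so no order is read from them. Cells with and without a Foxp3 UMI carried the cluster's markers alike, with a marker sum of 546 and 614 CPM in ICOS FC and 571 and 562 CPM in ICOS WT. A cell without a Foxp3 UMI may still express the gene at this depth.

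A gene was called higher or lower in cluster 4 when its mean CPM over both sides was at least 20, the ratio at least 2-fold and the exact Poisson interval of the ratio at 95% clear of equality, in each library. Of 5127 genes, 537 were higher, which is 10.5%, and 324 were lower, which is 6.32%. The other genes with the largest ratios by the smaller of the 2 libraries' values, after Shmt1, Hk2 and Srm, were Tmem97, Ifrd2, Ctps, Pus7, Nefh, Thop1, Rrp15, Atad3a, Grwd1, Apex1, Ppan and Pusl1. Ctps, the enzyme that makes CTP, had a log2 ratio of 2.69 in ICOS FC and 2.91 in ICOS WT. Rrp15 and Grwd1, both of ribosome assembly, had ratios of 2.55 and 2.52 in ICOS FC and of 2.56 and 2.70 in ICOS WT. Atad3a, a protein of the mitochondrial inner membrane, had 2.54 in ICOS FC and 3.05 in ICOS WT. Without cells that share a barcode with another library, 491 genes were higher and 297 lower.

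The 10 genes with the lowest ratios were Ifit1bl1, Ifit3b, Ifit3, Igfbp4, Rsad2, Itga4, Ly6c1, Tmem71, Crebrf and Ypel3. Ifit1bl1 of the interferon-induced IFIT family had 10.7 CPM in ICOS FC cluster 4, against 89.0, and 10.8 CPM in ICOS WT cluster 4, against 115. Igfbp4, a binding protein of insulin-like growth factors, had 15.7 CPM in ICOS FC cluster 4, against 117, and 20.7 CPM in ICOS WT cluster 4, against 181. Itga4, the alpha-4 integrin chain, had 15.7 CPM in ICOS FC cluster 4, against 106, and 7.34 CPM in ICOS WT cluster 4, against 77.9.

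Gene lists were read with a wider rule, a mean of 5 CPM and a ratio of 1.5-fold with the interval clear of equality in each library. By this rule 18.5% of 8358 genes were higher in the cluster and 15.9% were lower, and the median log2 ratio of all genes was 0.02 in ICOS FC and 0.00 in ICOS WT. The lists were chosen with results of these data known, so their counts describe the cluster. Over 19 lists of biosynthesis and protein handling, 296 of 456 members were higher and 5 were lower, and 288 and 5 without cells that share a barcode. These 19 leave out the cytosolic ribosomal proteins and the sterol and fatty acid genes. With both lists added, 301 of 554 members were higher and 7 were lower.

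Ribosome building genes led. All 40 ribosome biogenesis genes were higher, with a median log2 ratio of 1.90 in ICOS FC and 2.13 in ICOS WT. Ncl, the nucleolar protein nucleolin, had 2692 CPM in ICOS FC cluster 4, against 583, and 2562 CPM in ICOS WT cluster 4, against 498. Npm1, the nucleolar chaperone nucleophosmin, had 3400 CPM in ICOS FC cluster 4, against 1181, and 3147 CPM in ICOS WT cluster 4, against 939.5. Mrto4, an assembly factor of the large subunit, had 267 CPM in ICOS FC cluster 4, against 48.8, and 252 CPM in ICOS WT cluster 4, against 35.6. At the low end, Nob1, an endonuclease that matures the small subunit RNA, had a log2 ratio of 1.31 in ICOS FC and 1.36 in ICOS WT. Of 16 genes of RNA polymerases I and III, 11 were higher, among them Polr1b at 2.43 and 2.55 on the log2 scale in ICOS FC and ICOS WT.

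The ribosomal proteins themselves took no larger share of the RNA. Of 78 genes with Rpl or Rps names, taken by name as cytosolic ribosomal proteins, 1 was higher, Rpl7l1, and 1 was lower, Rps27. The median log2 ratio was -0.17 in ICOS FC and -0.07 in ICOS WT. Because a cluster 4 cell held more UMIs, its count of ribosomal protein UMIs was still larger, at 4729 per cell, against 2465 in ICOS FC, and 4889, against 2262, in ICOS WT. Their sum was 287682 CPM in ICOS FC cluster 4, against 331201, and 291322 CPM in ICOS WT cluster 4, against 312583. With ribosomal protein and mitochondrial genes taken out of the total, the calls became 428 higher and 407 lower.

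**Figure D3:**
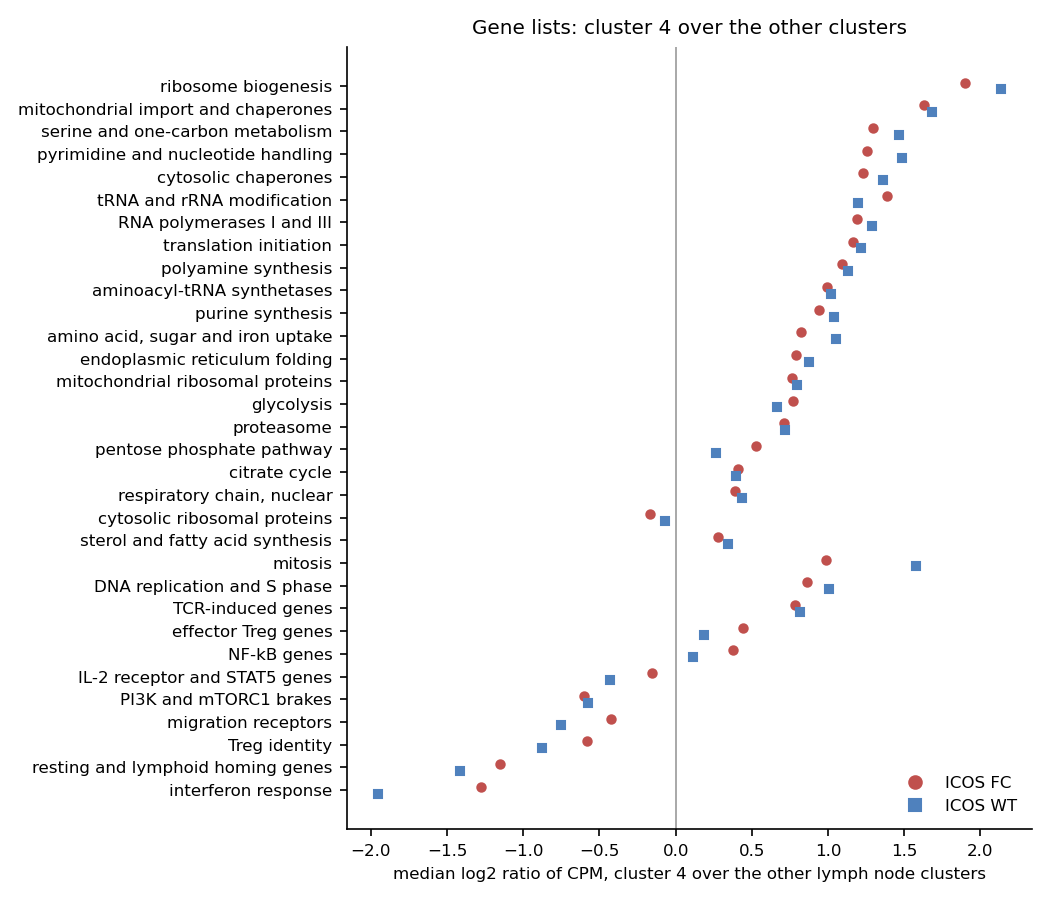
Median log2 ratio of CPM, cluster 4 over the other lymph node clusters, for the gene lists named at the left, with circles for ICOS FC above squares for ICOS WT. Biosynthetic lists stand at the top, led by ribosome biogenesis at 1.90 in ICOS FC and 2.13 in ICOS WT, and interferon response genes at the bottom at -1.28 and -1.95.

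Translation and folding genes were also high. Of 18 translation initiation genes, 16 were higher, with Eif4a1, the helicase that opens mRNA leaders, at 1363 CPM in ICOS FC cluster 4, against 463, and 1301 CPM in ICOS WT cluster 4, against 389. Of 19 aminoacyl-tRNA synthetases, 12 were higher, with Rars at a log2 ratio of 1.62 in ICOS FC and 1.78 in ICOS WT and Wars at 0.05 and 0.36. Of 15 tRNA and rRNA modification genes, 11 were higher, among them Mettl1, a tRNA methyltransferase, at 2.12 in ICOS FC and 2.67 in ICOS WT. All 19 cytosolic chaperones were higher, with Hsp90aa1 at 1613 CPM in ICOS FC cluster 4, against 451, and 1534 CPM in ICOS WT cluster 4, against 346. Of 38 genes with Psma, Psmb, Psmc or Psmd names, nearly all of them proteasome subunits, 23 were higher, while the immunoproteasome subunit Psmb9 had -0.28 in ICOS FC and -0.66 in ICOS WT.

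Nucleotide and one-carbon genes were mostly high. Of 15 pyrimidine genes, 13 were higher. Cad, the enzyme that starts pyrimidine synthesis, had a log2 ratio of 1.91 in ICOS FC and 2.69 in ICOS WT. Of 14 purine genes, 12 were higher, among them Gart and Ppat at 1.60 and 1.63 in ICOS FC and 2.11 and 1.98 in ICOS WT. Of 20 sterol and fatty acid genes, 4 were higher and 1 was lower. Of 13 serine and one-carbon genes, 11 were higher. Phgdh, the first enzyme of serine synthesis, had 259 CPM in ICOS FC cluster 4, against 92.1, and 223 CPM in ICOS WT cluster 4, against 65.4. Mthfd2, a mitochondrial folate enzyme, passed in neither direction, at 0.35 in ICOS FC and 0.33 in ICOS WT.

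In the polyamine list 7 of 13 genes were higher and 1 was lower. Odc1, the ornithine decarboxylase that feeds Srm, had 417 CPM in ICOS FC cluster 4, against 114, and 308 CPM in ICOS WT cluster 4, against 126. Eif5a, the translation factor that carries a spermidine-derived residue, had 1889 CPM in ICOS FC cluster 4, against 660.0, and 1773 CPM in ICOS WT cluster 4, against 539.6. The lower gene was Sat1, which breaks polyamines down, at a log2 ratio of -0.82 in ICOS FC and -0.79 in ICOS WT.

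Uptake and energy genes were less uniform. Of 14 nutrient transporters, 9 were higher and 1 was lower. Slc7a5, the large neutral amino acid transporter, had 40.6 CPM in ICOS FC cluster 4, against 7.48, and 45.3 CPM in ICOS WT cluster 4, against 6.44. Tfrc, the transferrin receptor that brings in iron, had 113 CPM in ICOS FC cluster 4, against 23.8, and 98.4 CPM in ICOS WT cluster 4, against 17.99. Slc2a3, a glucose transporter, was the lower one, at -1.34 in ICOS FC and -0.75 in ICOS WT. Of 14 glycolysis genes, 9 were higher, and Hk1 had -0.62 in ICOS FC and -0.52 in ICOS WT beside the 3.06 and 3.48 of Hk2.

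Mitochondrial genes split by role. Of 20 import and chaperone genes, 19 were higher, with Hspd1, the matrix chaperonin, at 875 CPM in ICOS FC cluster 4, against 171, and 940.4 CPM in ICOS WT cluster 4, against 132. Of 77 mitochondrial ribosomal proteins, 49 were higher, with a median of 0.76 in ICOS FC and 0.80 in ICOS WT. Of 77 nuclear respiratory chain genes, 20 were higher and 1 lower, with medians of 0.39 and 0.43, and of 13 citrate cycle genes 3 were higher. The lower respiratory gene was Cox7a2l, an assembly factor for supercomplexes, at -1.36 in ICOS FC and -1.34 in ICOS WT.

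Myc had 199.6 CPM in ICOS FC cluster 4, against 64.7 in the other cells, and 145 CPM in ICOS WT cluster 4, against 47.3. Cluster 7 stood above cluster 4, with 268 CPM in ICOS FC and 229 CPM in ICOS WT. At 5000 UMIs per cell, 40.1% of ICOS FC and 43.5% of ICOS WT members of cluster 4 had a Myc UMI, against 46.7% and 44.2% in cluster 7. Its antagonists Mxd4 and Mxd1, which compete for MAX, were lower, with log2 ratios of -2.05 and -1.17 in ICOS FC and -2.46 and -1.49 in ICOS WT. The Myc network list as a whole did not shift, with 1 of 8 genes higher, 2 lower and 5 between. Its medians were -0.14 in ICOS FC and -0.0006 in ICOS WT. Of 14 brakes on PI3K and mTORC1, 7 were lower and 0 higher as a share of UMIs. Per cell this list had a mean of 5.13 UMIs in ICOS FC members, against 3.98, and 6.25 in ICOS WT members, against 4.71. Pik3ip1, which inhibits PI3K, had 9.81 CPM in ICOS FC cluster 4, against 49.9, and 12.1 CPM in ICOS WT cluster 4, against 56.0.

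Of 19 genes induced by T cell receptor signalling, 10 were higher and 1 was lower. Tnfrsf4, the costimulatory receptor OX40, had 3217 CPM in ICOS FC cluster 4, against 906, and 2294 CPM in ICOS WT cluster 4, against 741. Irf4, a transcription factor of activated T cells, had a log2 ratio of 1.49 in ICOS FC and 1.52 in ICOS WT. Egr3, an early response factor, had -0.65 in ICOS FC and -0.86 in ICOS WT. Bcl2a1d had 1.60 in ICOS FC and 2.13 in ICOS WT, although reads of it and of its close copy Bcl2a1b may be split between them. The list of immediate early and stress genes went the other way, with 1 of 12 higher and 5 lower. Its medians were -0.27 in ICOS FC and -0.90 in ICOS WT. Of 20 effector Treg genes 7 were higher and 0 lower, with Batf, an AP-1 factor, at 508 CPM in ICOS FC cluster 4, against 185, and 358 CPM in ICOS WT cluster 4, against 139.8.

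Genes of Treg identity more often took a smaller share of UMIs, but not fewer UMIs per cell as a list. Of 14 identity genes, 1 was higher and 7 were lower, with medians of -0.58 in ICOS FC and -0.88 in ICOS WT. Their sum was 4733 CPM in ICOS FC cluster 4, against 4731, and 3485 CPM in ICOS WT cluster 4, against 4000. The list had a mean of 77.8 UMIs per cell in ICOS FC members, against 35.2, and 58.5 in ICOS WT members, against 28.9. Ctla4, the inhibitory receptor that competes for CD28 ligands, had 1080 CPM in ICOS FC cluster 4, against 541, and 865 CPM in ICOS WT cluster 4, against 446. Of 14 identity genes, 7 were lower, among them Foxp3 and Nt5e, the ecto-enzyme CD73. Nt5e had 41.5 CPM in ICOS FC cluster 4, against 115, and 22.5 CPM in ICOS WT cluster 4, against 95.7. Without cells that share a barcode, the lower count was 5.

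Resting and interferon genes took a smaller share of UMIs in cluster 4, but not fewer UMIs per cell. The resting list had a mean of 21.2 UMIs per cell in ICOS FC members, against 19.8. In ICOS WT members it had 19.8, against 19.1. The interferon list had 42.0 UMIs per cell in ICOS FC members, against 29.3, and 40.6 in ICOS WT members, against 33.5. Of 13 resting and lymphoid homing genes, 10 were lower and 0 higher, with medians of -1.15 in ICOS FC and -1.41 in ICOS WT. S1pr1, the receptor that lets T cells leave the lymph node, had 42.6 CPM in ICOS FC cluster 4, against 209, and 38.4 CPM in ICOS WT cluster 4, against 212. Bcl2, which protects resting lymphocytes from death, had 60.8 CPM in ICOS FC cluster 4, against 349, and 44.0 CPM in ICOS WT cluster 4, against 301. Its relative Bcl2l1 had the opposite ratio, at 1.53 in ICOS FC and 1.92 in ICOS WT. Of 16 interferon response genes, 13 were lower and 0 higher. Ifit3, induced by type I interferon, had 24.4 CPM in ICOS FC cluster 4, against 183, and 20.7 CPM in ICOS WT cluster 4, against 246, although its reads may be split with its close copy Ifit3b. Bst2 and Isg15 of the same list had ratios between -0.27 and 0.13.

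**Figure D4:**
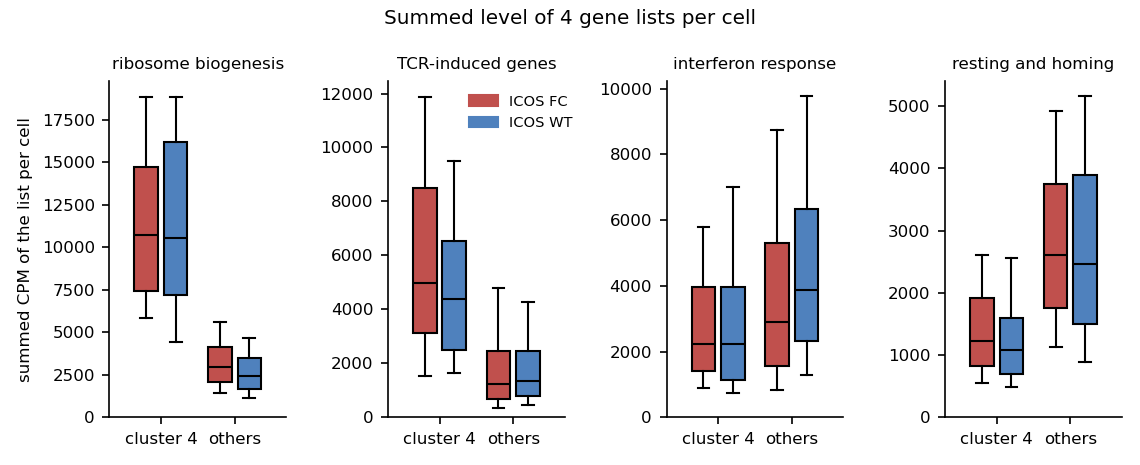
Summed CPM of 4 gene lists per cell in cluster 4 and in the other lymph node clusters, with ICOS FC left of ICOS WT. Boxes span the quartiles with the median as a line, and whiskers reach the 10th and 90th percentiles of cells. The median ribosome biogenesis sum is 10719 CPM in ICOS FC and 10575 CPM in ICOS WT cluster 4 cells, against 2966 and 2427 CPM in the other cells.

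The ribosome biogenesis sum was high in most cells of the cluster. Its lower quartile in cluster 4 was 7417 CPM in ICOS FC and 7230 CPM in ICOS WT. The upper quartile of the other cells was 4118 CPM in ICOS FC and 3471 CPM in ICOS WT.

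More members were assigned to S phase by the deposited phase calls, 31.3% of ICOS FC and 35.5% of ICOS WT members, against 17.6% and 15.8% of the other ICOS FC and ICOS WT cells. Members in G2M were 7.37% of ICOS FC and 5.07% of ICOS WT, against 3.84% and 3.58%. Of 17 replication genes 12 were higher, and 8 without cells that share a barcode. Mcm3, a subunit of the replicative helicase, had 152 CPM in ICOS FC cluster 4, against 66.2, and 155 CPM in ICOS WT cluster 4, against 53.4. Of 14 mitosis genes 13 were higher, while the median member of each library held 0 CPM of them. No mitosis UMI was found in 57.1% of ICOS FC and 52.2% of ICOS WT members, against 74.9% and 75.7% of the other ICOS FC and ICOS WT cells. Such shares follow depth, which was larger in the cluster, so no order is read from them. In the 16 ICOS FC members called G2M these genes summed to 5487 CPM, against 5475 in the other G2M cells, and in the 7 ICOS WT members to 4974 CPM, against 4689.5. In members called G1 the sum was 24.3 CPM in ICOS FC, against 40.0, and 30.3 CPM in ICOS WT, against 40.6. Cdkn1b, the cell cycle inhibitor p27, had 37.6 CPM in ICOS FC cluster 4, against 175, and 34.5 CPM in ICOS WT cluster 4, against 193.

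Growth genes were also high in members called G1. There the ribosome biogenesis genes summed to 11090 CPM in ICOS FC cluster 4, against 3189, and to 10373 CPM in ICOS WT cluster 4, against 2627. The sum was 14810 CPM in ICOS FC and 13974 CPM in ICOS WT members called S. Dnph1 differed with the phase, at 11.8 CPM in G1 and 61.0 CPM in S members of ICOS FC, and at 9.10 and 59.5 CPM in those of ICOS WT. With G1 cells alone on both sides, 488 genes were higher and 226 lower. Depth differed with the phase, with medians of 10088 UMIs in G1 and 23849 in S members of ICOS FC.

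The 2 clusters most like cluster 4 were 7 and 3, by Pearson correlation of log2 levels over 5127 genes. It was 0.89 in ICOS FC and 0.86 in ICOS WT for cluster 7, and 0.88 and 0.83 for cluster 3. All clusters come from the same libraries, so these values are descriptions. Against cluster 7, 275 genes were higher in cluster 4 (5.57% of 4938) and 215 lower (4.35%). Fabp5, a fatty acid carrier, had 383 CPM in ICOS FC cluster 4, against 69.7 in cluster 7, and 250.4 CPM in ICOS WT cluster 4, against 35.2. Egr2, a factor induced within hours of T cell receptor signalling, went the other way, with 16.8 CPM in ICOS FC cluster 4, against 156, and 15.1 CPM in ICOS WT cluster 4, against 255. Klrd1, an NK receptor chain, had 0.841 CPM in ICOS FC cluster 4, against 127, and 5.18 CPM in ICOS WT cluster 4, against 75.7.

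Against cluster 3, 474 genes were higher (9.75% of 4864) and 201 lower (4.13%). Tnfrsf9, the costimulatory receptor 4-1BB, had 726 CPM in ICOS FC cluster 4, against 54.7 in cluster 3, and 592 CPM in ICOS WT cluster 4, against 43.9. Gadd45b, a stress-induced signalling gene, had 264 CPM in ICOS FC cluster 4, against 19.4, and 224 CPM in ICOS WT cluster 4, against 14.96. Gbp2b, an interferon-induced GTPase, had 3.08 CPM in ICOS FC cluster 4, against 59.1, and 2.16 CPM in ICOS WT cluster 4, against 41.1.

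A gene was called higher or lower in ICOS FC when its mean CPM was at least 20, the ratio at least 1.5-fold and the interval clear of equality. Within cluster 4, 126 of 5238 genes were higher (2.41%) and 106 were lower (2.02%). In the other lymph node clusters, 44 of 5233 were higher (0.841%) and 46 lower (0.879%). The other clusters had more UMIs, and fewer genes passed there. Of the cluster 4 calls, 12 of the 126 higher and 17 of the 106 lower genes also passed in the same direction in the other clusters. The intervals treat UMIs as independent and are too narrow where few cells hold most UMIs of a gene. Without each gene's 5 highest cells per library, 86 of the 126 higher and 55 of the 106 lower calls still passed, and 4 changed sign. With every cell that shares a barcode taken out, 158 genes were called higher and 100 lower, and 113 and 73 of these had been called with all cells.

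Few members of the 19 biosynthetic lists passed between the labels. Of their 456 members, 1 was higher and 1 lower in ICOS FC by the list rule, which 3.03% and 3.22% of all 8343 genes passed, and the median log2 ratio was 0.03. The higher one was Slc16a3, a lactate transporter, with 16.3 CPM in ICOS FC and 9.07 CPM in ICOS WT, and its call was lost without cells that share a barcode. The lower one was Pfas, a purine enzyme, with 24.4 CPM in ICOS FC and 37.1 CPM in ICOS WT. Without cells that share a barcode, 1 member was higher, Tsen15, and 5 were lower, Pfas, Tk1, Mrpl1, Mrps27 and Psmc3ip. The sterol and fatty acid genes, outside the 19 lists, had 4 of 21 lower and are given below. Srm, Hk2, Shmt1, Dnph1 and Ifrd2 had log2 ratios between 0.03 and 0.16, and Pus7 had -0.19, each with an interval that spans equality. Without cells that share a barcode, the median of the 6 markers was -0.18, against 0.05 with them. Myc had 199.6 CPM in ICOS FC and 145 CPM in ICOS WT, a log2 ratio of 0.46 (0.27 to 0.65), short of the fold asked for.

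Of 14 Treg identity genes, 6 were higher and 0 lower in ICOS FC members by the list rule, with a median of 0.48. The median was 0.27 in cells with a Foxp3 UMI, and Nrp1 was a further higher member without cells that share a barcode. Lrrc32, the GARP receptor that holds latent TGF-beta on the surface, had 107 CPM in ICOS FC and 39.3 CPM in ICOS WT, with UMIs in 59.0% of ICOS FC and 37.7% of ICOS WT members. Il2ra, the alpha chain of the IL-2 receptor, had 805 CPM in ICOS FC and 484 CPM in ICOS WT. Foxp3 had 36.4 CPM in ICOS FC and 32.4 CPM in ICOS WT, with an interval from -0.25 to 0.60. Nt5e, Gpr83, Itih5 and Ikzf4 were the other higher members, with log2 ratios between 0.59 and 1.29. In the other clusters 1 of 14 was higher, at a median of 0.24, where 1.66% of 8537 genes were higher and 1.89% lower by the list rule, and the difference between the clusters was not tested.

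Of 18 genes of IL-2 receptor signalling, 5 were higher and 0 lower, with a median of 0.32, and 0.70 in cells with a Foxp3 UMI. Bcl2 was a further higher member without cells that share a barcode. Socs1, which STAT5 induces and which damps cytokine signals, had 310.3 CPM in ICOS FC and 146 CPM in ICOS WT. Cish, another STAT5-induced inhibitor, had 175 CPM in ICOS FC and 109 CPM in ICOS WT. Il2ra is a member of both lists.

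Of 20 effector Treg genes, 7 were higher and 3 lower in ICOS FC, with a median of 0.45, and 0.24 in cells with a Foxp3 UMI. Leaving out cells that share a barcode gave 8 higher, 6 of them called with all cells, and the call of Rora was lost. Il1rl1, the IL-33 receptor ST2, had 42.9 CPM in ICOS FC and 16.4 CPM in ICOS WT, with 60.5% of the ICOS WT UMIs in 5 cells. Ebi3, a subunit of the cytokine IL-35, had 53.3 CPM in ICOS FC and 25.9 CPM in ICOS WT. Prdm1, the transcription factor BLIMP-1, had 66.4 CPM in ICOS FC and 37.1 CPM in ICOS WT. The lower ones were Gzmb, Il10 and Pdcd1.

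The highest genes outside these lists included receptors and a chemokine. Il1r2, the decoy receptor for IL-1, led them with 129 CPM in ICOS FC and 21.6 CPM in ICOS WT. Its UMIs were found in 44.7% of ICOS FC and 10.9% of ICOS WT members, and its log2 ratio was 2.58 in cluster 4 and 0.69 in the other clusters, a difference that was not tested. Cxcl10, an interferon-induced chemokine, had 74.0 CPM in ICOS FC and 13.8 CPM in ICOS WT. Nfil3, a transcription factor, had 39.2 CPM in ICOS FC and 13.8 CPM in ICOS WT. Pglyrp1, a peptidoglycan recognition protein, had 119 CPM in ICOS FC and 46.2 CPM in ICOS WT.

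Of the other high genes, Cd74, the MHC class II invariant chain, had 243 CPM in ICOS FC and 113 CPM in ICOS WT. Iigp1, an interferon-induced GTPase, had 137 CPM in ICOS FC and 55.7 CPM in ICOS WT. Fam46a had 62.2 CPM in ICOS FC and 16.0 CPM in ICOS WT. Penk, the enkephalin precursor, had 135 CPM in ICOS FC and 49.7 CPM in ICOS WT, with 62.3% and 84.4% of its UMIs in 5 cells. Gzma, a granzyme, had 41.2 CPM in ICOS FC and 11.2 CPM in ICOS WT, but 98.0% of its ICOS FC and 96.2% of its ICOS WT UMIs sat in 5 cells, and without them 3 and 1 UMIs remained.

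Gzmb and Nkg7 were among the lowest genes in ICOS FC members. Gzmb, the granzyme that effector Treg and cytotoxic cells use to kill, had 507 CPM in ICOS FC and 2326 CPM in ICOS WT, a log2 ratio of -2.20. Its UMIs were found in 35.5% of ICOS FC and 42.0% of ICOS WT members, with 31.8% and 47.4% of them in 5 cells. Without those cells the ratio was -1.88. Nkg7, a granule protein, had 25.5 CPM in ICOS FC and 159.8 CPM in ICOS WT, and -2.66 on the log2 scale without its 5 highest cells. In the other clusters the ratios were -1.33 for Gzmb and -1.57 for Nkg7. Cd8b1, the CD8 beta chain, had 16.5 CPM in ICOS FC and 43.6 CPM in ICOS WT. Without its 5 highest cells per library it had 7.42 and 16.1 CPM, and its call was lost. In members called G1 it had 30.6 CPM in ICOS FC and 32.3 CPM in ICOS WT. The 5 CD8 T and NK markers summed to 29.2 CPM in ICOS FC and 85.9 CPM in ICOS WT. These markers were lower in ICOS FC, as Gzmb and Nkg7 were, and their part in the result was not tested. In members with a Foxp3 UMI, Gzmb had 692 CPM in ICOS FC and 2827 CPM in ICOS WT. In members without a Foxp3 UMI it had 331 and 1946 CPM. The calls of Gzmb and Nkg7 were kept in all 15 other settings, among them that without cells with a Cd8a or Il2 UMI. Without all cells that had a Cd8a or Il2 UMI, 164 genes were higher and 135 lower.

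Il10, the suppressive cytokine, shows how few cells can set a value. It had 37.0 CPM in ICOS FC and 108 CPM in ICOS WT, and 96.8% of its ICOS WT UMIs sat in 5 cells. Without the 5 highest cells of each library it had 13.6 CPM in ICOS FC and 3.67 CPM in ICOS WT, so the direction turned. UMIs of Il10 were found in 12.9% of ICOS FC and 8.70% of ICOS WT members.

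**Figure D5:**
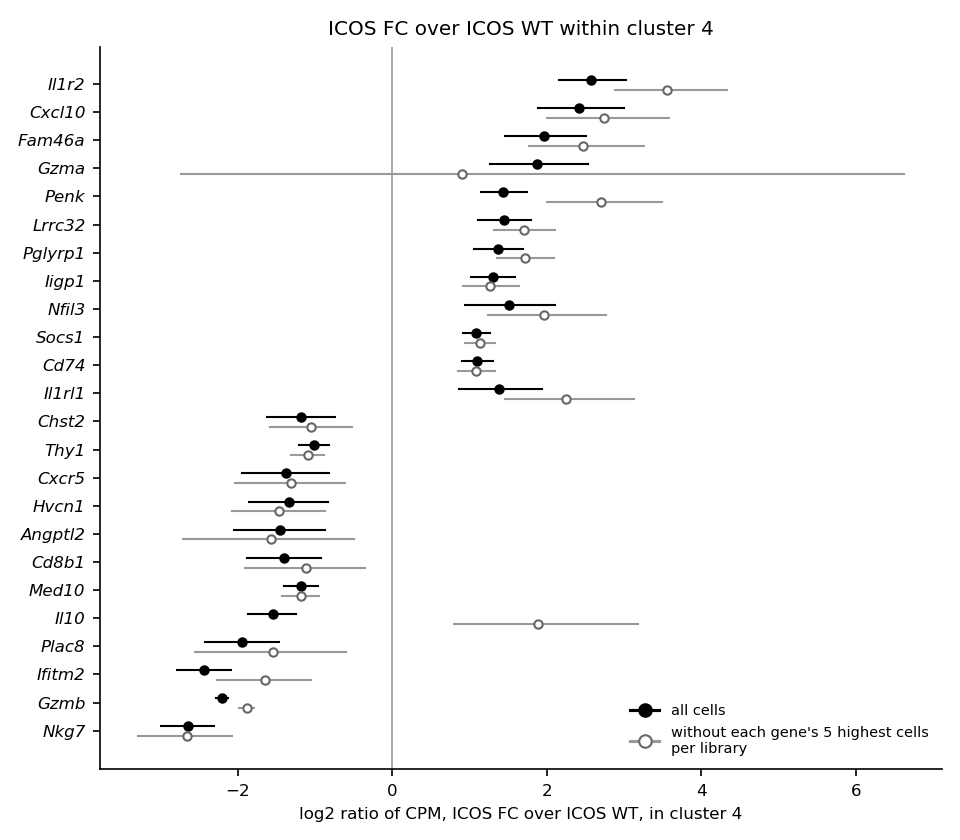
Cluster 4 only: log2 ratio of ICOS FC CPM to ICOS WT CPM for the 12 highest and 12 lowest genes, with exact Poisson intervals that cover counting error only. Filled points use all cells and open points leave out each gene's 5 highest cells per library. Il1r2 stands at 2.58 and Gzmb at -2.20, while Il10 turns to 1.89 and Gzma spans equality without those cells.

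Several of the lowest genes were also lower in ICOS FC in the other lymph node clusters. Med10, a subunit of the Mediator complex, had 81.6 CPM in ICOS FC and 185 CPM in ICOS WT cluster 4, a log2 ratio of -1.18, and -1.16 in the other clusters. Thy1, a surface glycoprotein of T cells, had 105 CPM in ICOS FC and 211 CPM in ICOS WT, a ratio of -1.01, and -0.90 in the other clusters. Ifitm2, an interferon-induced membrane protein, had 24.9 CPM in ICOS FC and 135 CPM in ICOS WT, a ratio of -2.44, and -2.36 in the other clusters. Chst2 had -1.18 in cluster 4 and -1.03 elsewhere.

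Of 7 follicular Treg genes, 5 were lower in ICOS FC members and 0 higher, with a median of -0.90, beside 5 of 8 at -0.92 in the other clusters, where 1.89% of all genes were lower. Cxcr5, the receptor that leads T cells into follicles, had 12.3 CPM in ICOS FC and 31.9 CPM in ICOS WT. Il21r, the IL-21 receptor, had 72.0 CPM in ICOS FC and 120.0 CPM in ICOS WT. Sterol and fatty acid genes had 4 of 21 lower and 0 higher, with a median of -0.31, among them Mvk at 4.20 CPM in ICOS FC and 9.93 CPM in ICOS WT. The median was -0.05 in cells called G1, and without cells that share a barcode 3 were lower.

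Genes of resting T cells were mixed. Klf2, a transcription factor of quiescent T cells, had 185 CPM in ICOS FC and 96.7 CPM in ICOS WT. Tcf7, a factor of resting T cells, had 41.5 CPM in ICOS FC and 76.0 CPM in ICOS WT. Of 14 mitosis genes, 4 were higher and 0 lower in ICOS FC members, with a median of 0.45. This median lay between 0.12 and 0.84 under the other settings, and 6 genes were higher without cells that share a barcode. Top2a, the topoisomerase of dividing cells, had 245 CPM in ICOS FC and 152 CPM in ICOS WT. In the other clusters all 14 were higher, at a median of 1.00, where 1.66% of all genes were higher. In the interferon list 0 of 16 passed in either direction, with a median of 0.21, and 0.56 in cells with a Foxp3 UMI. Without cells that share a barcode 1 was higher, Stat2. Of 12 immediate early and stress genes, 0 were higher and 3 lower in ICOS FC members, with a median of -0.12. Leaving out cells that share a barcode gave 1 higher and 2 lower. In the other clusters 4 of 12 were lower, at a median of -0.31, where 1.89% of all genes were lower.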

How the data were processed

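The deposited expression values are a natural log, as the values show: each cell's UMIs were scaled to a total of 10000, and 1 was added before the log was taken. The authors also deposited counts of UMIs and detected genes per cell, the percent of mitochondrial UMIs, cluster numbers and phase scores, per the file headers. The submitters' processing notes name Cell Ranger 4.0.0, R 3.6.1 and Seurat 3.0, and the builds GRCm38.p6 and mm10, without their roles. Neither cell filters nor doublet removal by the authors are described in the labels, and no doublet caller was run here.

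The natural log values were turned back into whole UMIs. All 8798056 lymph node values above 0 came out whole within 0.001 UMI, and all 3963 cells matched their deposited totals. UMIs were summed per library and cell set and given as CPM. Ratios have exact conditional Poisson intervals at 95%, which cover counting error only. With 1 library per group there is no test across animals. List medians use CPM plus 0.5, and a level of 0 allows up to 3 counts. Python 3.11.15, numpy 2.4.6, scipy 1.17.1, pandas 2.3.3 and matplotlib 3.10.9 were used, and the scripts were tested on simulated data.

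Members and gene lists were chosen with earlier results of these data known. Named genes are the 6 markers, Icos, Foxp3, the 15 highest and 10 lowest genes against the other clusters by the smaller log2 ratio of the 2 libraries, the 12 highest and 12 lowest between the labels by the interval bound nearest equality, and, per list, the 3 highest and 2 lowest members and those of at least 100 CPM. Egr2, Fabp5, Gadd45b, Gbp2b, Klrd1, Ikzf4, Nop2, Xbp1, the markers of other cell types at 0 and the genes whose call changed without shared barcodes were named after their values were seen. The subsets without shared barcodes, without Cd8a or Il2 cells, of cells together at all resolutions, of G1 cells on both sides of the cluster comparison and without the 5 highest cells were added after seeing the data.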

Additional observations from a re-analysis of the deposited data

Results flagged for a closer look

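Plac8, a small cysteine-rich protein, had 14.9 CPM in ICOS FC and 57.0 CPM in ICOS WT within cluster 4, a log2 ratio of -1.94. In the other lymph node clusters it had 42.5 CPM in ICOS FC and 17.1 CPM in ICOS WT, a log2 ratio of 1.31, so the direction was opposite. The difference between the clusters was not tested, since each label has 1 library. Within the cluster, 17 ICOS FC and 14 ICOS WT cells had a Plac8 UMI, and the 5 highest cells held 71.7% of its ICOS FC and 78.8% of its ICOS WT UMIs.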

How the results depend on the processing

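No paired analysis was possible because each group is 1 library. The cluster 4 calls, 537 higher and 324 lower, kept within 1.5 times of these counts under other scalings and cell filters. A minimum of 50 CPM gave 333 higher and 167 lower, and a minimum of 5 CPM gave 590 lower, since the number of genes compared changes. Between the labels, 126 were higher and 106 lower in ICOS FC. A minimum of 5 CPM gave 253 and 269, and one of 50 CPM gave 46 and 18. The lower count was 188 in cells with a Foxp3 UMI, 197 in G1 cells and 188 in cells grouped together at all deposited resolutions, and the cause was not tested. The share of cells was 7.16% in ICOS FC and 4.90% in ICOS WT for cells grouped together at all resolutions, and 8.55% in ICOS WT among cells under 5% mitochondrial counts. Of 480 values of named genes between the labels, 6 turned the direction of a gene called with all cells. Gzma came to -0.59 once the 5% of cells richest in UMIs were left out, to -4.06 in G1 cells and to -0.57 in cells grouped together at all resolutions. Plac8 came to 0.079 and Angptl2 to 0.012 in cells with a Foxp3 UMI, and Il10 to 1.89 without its 5 highest cells. A further 25 of the 480 became weaker, 11 became stronger and 438 stayed the same by call. Genes not called with all cells could change sign and still count as the same. Srm lay between -0.22 and 0.14, Hk2 between -0.21 and 0.28 and Shmt1 between -0.42 and 0.12. The lowest values of Dnph1, Ifrd2 and Foxp3 were -0.28, -0.21 and -0.002. Icos, at 0.58 with all cells and short of the 1.5-fold rule, lay between 0.49 and 0.70. It stayed the same in 5 of 15 settings. In the others it passed as higher in ICOS FC, as at 0.65 (0.57 to 0.72) without its 5 highest cells per library. The median log2 ratios between the labels of 7 lists moved with the cells used. In cells with a Foxp3 UMI, Treg identity came to 0.27 (0.48 with all cells), effector Treg genes to 0.24 (0.45), IL-2 receptor genes to 0.70 (0.32) and interferon genes to 0.56 (0.21). Sterol and fatty acid genes came to -0.05 in G1 cells (-0.31). Mitosis genes (0.45) came to 0.84 without the 5% of cells richest in UMIs, 0.83 without cells with a Cd8a or Il2 UMI and 0.12 in cells grouped together at all resolutions. The 6 markers (0.05) came to -0.19 when CPM were averaged over cells and to -0.18 without cells that share a barcode. The cause was not tested. Few cells and single libraries limit these values.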
